A study of Mus musculus with 46 samples.

Results

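The nucleus accumbens of DBA/2J mice that had received nicotine was compared with that of C57BL/6J mice on the same drug. These were 22 of the 46 mice of the study, chosen by strain and drug and not by any measured value. The DBA/2J mice comprised 6 with the nicotine pump still in place (chronic) and 5 in withdrawal, and the C57BL/6J mice 5 chronic and 6 in withdrawal. All were males that carried an osmotic minipump for 14 days. Nicotine was delivered at 24 mg per kg per day, and in the withdrawal groups the pump had been taken out 24 h before death. The 24 saline mice, 6 per strain and phase with saline pumps, share no animal with the nicotine mice and served as a second, separate strain comparison. Each mouse had 1 Affymetrix MTA 1.0 array, so all p-values rest on the spread between mice.

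The nucleus accumbens is the ventral part of the striatum. Most of its neurons are inhibitory projection neurons that carry dopamine receptors, and a small number of large interneurons release acetylcholine. Nicotine opens nicotinic acetylcholine receptors on the dopamine fibres that reach it, and on local neurons. C57BL/6J and DBA/2J are the parents of the BXD recombinant inbred lines and are known to differ in their voluntary intake of nicotine and of alcohol. The mouse reference genome is that of C57BL/6J.

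The values are log2 array values that the authors deposited, and a difference is always DBA/2J minus C57BL/6J. A gene was called when its adjusted p from limma, with the phase as a covariate, was under 0.05. Among 9596 genes tested, 2496 were called (26%), 1464 of them higher in DBA/2J (15.3%) and 1032 lower (10.8%). Most differences were small: the median size among called genes was 0.22 on the log2 scale, and 34 were at least 2-fold higher and 57 at least 2-fold lower. For 455 genes (4.74%) the ranges of the 11 and 11 mice did not overlap, with 226 higher in DBA/2J (2.36%) and 229 lower (2.39%). The array values used here hold 13 features of chromosomes 1 to 6 by identifier and lack the first part of chromosome 7, so differences there are not covered.

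The labels were checked first. Every nicotine array (22 of 22) correlated better with the mean of its own strain than with that of the other, and each correlated with its group mean at 0.9952 or above. The first principal component of the nicotine arrays held 45.46% of the variance, with DBA/2J mice between 12.55 and 15.09 and C57BL/6J mice between -15.83 and -11.71. Markers of the striatum were well above the array median of 6.30 to 6.44, with Drd2 (dopamine receptor D2) between 13.23 and 14.37 and Pde10a, the striatal phosphodiesterase, between 14.44 and 14.96. Myo5a, which carries the dilute coat colour mutation in DBA/2J, was lower in DBA/2J by -0.20 ± 0.033 (SE), with no overlap (13.99 to 14.19 against 14.23 to 14.43). Nnt, the mitochondrial transhydrogenase that lacks several exons in C57BL/6J, differed by 0.12 ± 0.036 (limma adjusted p = 0.0165). Its saline mice gave -0.01 (adjusted p = 0.932).

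The gene with the highest excess in DBA/2J was Stab2, a scavenger receptor for hyaluronan known from the endothelium of liver and spleen (chromosome 10, 86841198 to 87008025 in the authors' deposited table, which names no build). Its 11 DBA/2J values ran from 8.06 through a median of 9.67 to 10.63, and the 11 C57BL/6J values from 5.95 through 6.09 to 6.18. The DBA/2J mice were thus all above the C57BL/6J mice and far more scattered. The difference was 3.52 ± 0.25 (SE, limma adjusted p = 8.32e-11). All C57BL/6J values lay below the array medians, so Stab2 passed the filter on low values through DBA/2J alone, and no fold is given against that level. In the chronic groups the DBA/2J values spread over 8.23 to 10.45 and in withdrawal over 8.06 to 10.63, so the scatter did not follow the phase. The saline mice differed by 3.40.

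Several enzymes of metabolism and of detoxification stood next. Rfk, which makes the flavin cofactor FMN, ran from 11.37 (median 11.68) to 11.95 in DBA/2J and from 9.66 (median 9.77) to 10.04 in C57BL/6J. The 2 strains were 3.77-fold apart (difference 1.91 ± 0.062, adjusted p = 1.71e-17). Mlycd, the decarboxylase that breaks down malonyl-CoA and so frees fatty acid oxidation, reached 9.06 to 9.77 in DBA/2J and 7.10 to 7.57 in C57BL/6J, a difference of 1.89 ± 0.074. Ucp2, an uncoupling protein of the inner mitochondrial membrane, lay at 8.88 to 9.72 in DBA/2J and 7.66 to 8.06 in C57BL/6J (1.52 ± 0.086). No DBA/2J mouse overlapped with a C57BL/6J mouse for any of these 3 genes.

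Glo1, the glyoxalase that clears methylglyoxal, was 2.51-fold higher in DBA/2J (12.04 to 12.42 against 10.70 to 10.98, adjusted p = 4.22e-17). It lies on chromosome 17 (30591250 to 30612659) in a segment known to be duplicated in DBA/2J. Of the 5 tested genes listed for that neighbourhood, 3 were higher and 0 lower, and the median difference was 0.45 against 0.02 over all genes. The list includes Glo1 itself and was made with earlier results known, so these counts are a description. Btbd9 differed by 0.45 ± 0.044 without overlap (10.74 to 11.08 against 10.35 to 10.58). Glp1r, the receptor of the satiety hormone GLP-1, differed by 1.15 ± 0.17, from 9.01 to 10.22 in DBA/2J and from 7.30 to 8.89 in C57BL/6J. Gsr, which regenerates reduced glutathione, was higher by 1.09 ± 0.059 (10.47 to 10.99 against 9.46 to 9.89).

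Among the other genes without overlap, Serpina3n, an acute phase protease inhibitor made by reactive astrocytes, was 2.87-fold higher in DBA/2J (9.07 to 10.40 against 7.97 to 8.42). Ndn, a growth suppressor expressed from the paternal allele, was 2.81-fold higher (13.96 to 14.65 against 12.25 to 13.18). Zfp949, a zinc finger gene, differed by 1.79 ± 0.046 and Hddc3, a hydrolase, by 1.29 ± 0.088. Sfi1, a centrosome protein, and 3 copies of Pisd (Pisd-ps1, Pisd-ps2 and Pisd-ps3) were higher by 2.07, 1.64, 1.43 and 2.08. The Pisd copies are near-identical to each other, so their signals cannot be separated on an array.

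Of the genes lower in DBA/2J, Pttg1 (securin, which holds back the separation of sister chromatids) ran from 5.86 (median 6.17) to 6.30 in DBA/2J and from 7.85 (median 8.07) to 8.24 in C57BL/6J. The difference was -1.91 ± 0.054 (adjusted p = 1.16e-18). The DBA/2J values of Pttg1, and those of Impg1 (5.53 to 6.07), lay below the array medians, so both passed the filter through C57BL/6J and no fold is given. Cyb5r3, a cytochrome b5 reductase, was lower by -1.12 ± 0.053, and Slc39a2, a zinc importer, by -1.27 ± 0.057. Abhd14a, Krt12, Plekhh2, Impg1 and Zfp125 were lower by -1.24, -1.21, -1.18, -1.33 and -1.93. Mid1 and Erdr1, which lie at or near the pseudoautosomal region of the sex chromosomes, were lower by -1.17 and -1.86.

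The 3 lowest of the genes named by size lie on unplaced sequence of chromosome 4. Ccl21a and Ccl21b, copies of the chemokine that guides cells through CCR7, were lower by -2.31 and -2.32, and Fam205a2 by -2.45. Ccl21a ran from 6.69 (median 7.37) to 7.62 in DBA/2J and from 9.06 (median 9.56) to 10.38 in C57BL/6J. Both Ccl21 genes are near-identical and their array signals cannot be told apart. A class of 39 tested genes lay outside chromosomes 7 to 19, X, Y and the mitochondrial genome, these genes and Pisd-ps3 among them. In it 22 were called (56.41%) and 17 differed at least 2-fold. On chromosomes 7 to 19, X and Y the share called ran from 16.58% on the X to 31.75% on chromosome 17. On the mitochondrial genome 0 of 9 genes were called. The predicted gene with the widest gap, Gm10462 on chromosome 11, differed by -7.18, with means of 6.99 in DBA/2J and 14.2 in C57BL/6J.

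Ide, the insulin-degrading enzyme on chromosome 19, was 2.51-fold lower in DBA/2J (10.82 to 11.05 against 11.75 to 12.57). Within C57BL/6J its values fell apart into 2 sets. Over nicotine and saline mice together, 5 of the 23 C57BL/6J mice had between 11.70 and 11.81 (2 nicotine, 3 saline), and the other 18 between 12.17 and 12.58. The 23 DBA/2J mice lay between 10.79 and 11.09, below both. Ide and its neighbour Fgfbp3 belong to a segment known to vary in copy number among C57BL/6J mice, and Fgfbp3 was lower in DBA/2J by -0.34 ± 0.047. In the 5 mice low in Ide, Fgfbp3 read 6.99 to 7.26, and in the other 18 it read 7.12 to 7.53. Btaf1, a further neighbour that was looked up after the values of Ide were seen, differed by -0.48 ± 0.063 (limma adjusted p = 2.80e-06). Pisd-ps3 also varied within C57BL/6J, at 10.42 in chronic mouse 5, 10.39 and 10.90 in withdrawal mice 6 and 5, and 11.47 to 12.23 in the other 8. The first and second of these were also the nicotine mice low in Ide (11.75 and 11.81), and they had the highest Ccl21a values (10.29 and 10.38).

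**Figure D1:**
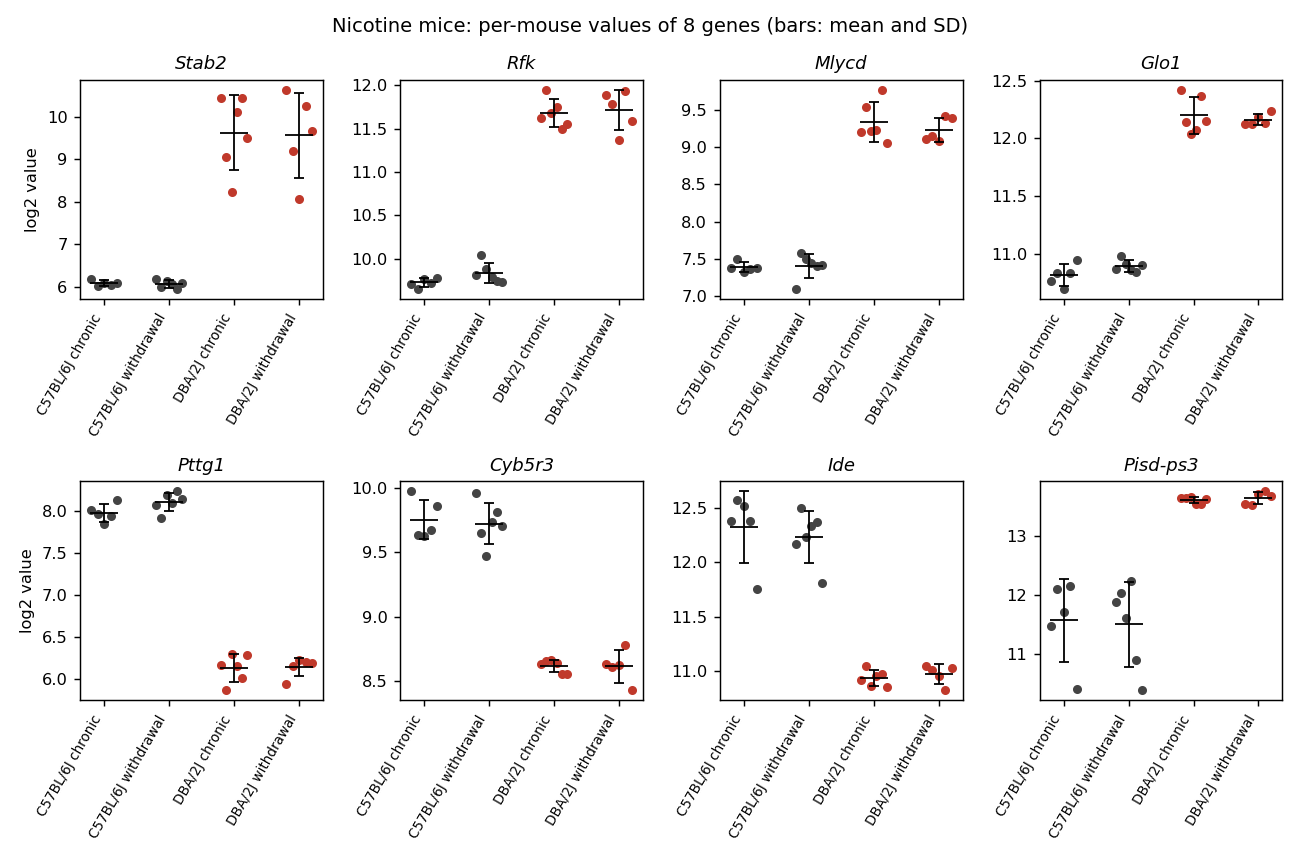
Log2 values of 8 genes in each nicotine mouse (points), by strain and phase, with the group mean and SD (bars). For Stab2, Rfk, Mlycd, Glo1 and Pisd-ps3 every DBA/2J mouse (red) lies above every C57BL/6J mouse (grey), and for Pttg1, Cyb5r3 and Ide below; Ide and Pisd-ps3 are scattered within C57BL/6J, and Stab2 within DBA/2J.

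The plot of these 8 genes by mouse shows that the strains do not overlap in either phase. For genes scattered within a strain, the gap between the strains can be narrower than that scatter.

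Whether the strain difference depends on the phase was asked next. In the chronic groups alone 1520 genes were called (15.8%), 843 higher in DBA/2J (8.78%) and 677 lower (7.06%). In withdrawal alone there were 1407 (14.7%), 769 higher (8.01%) and 638 lower (6.65%). Both phases called 889 genes in the same direction, 58.49% of the chronic and 63.18% of the withdrawal calls, and 0 genes in opposite directions. Of the 91 genes at least 2-fold apart, 88 were called in both phases. The direct test, the interaction of strain and phase in limma, called 0 of 9596 genes (0%), with 621 at an unadjusted p under 0.05 and a lowest adjusted p of 0.503. The genes with the smallest p were Olfr690, Ndn and Htr2a, and are given as values.

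Ndn in C57BL/6J ran from 12.25 to 12.88 with the pump in place and from 12.72 to 13.18 in withdrawal. In DBA/2J it ran from 14.11 to 14.65 and from 13.96 to 14.42. The strain difference was 1.84 in chronic and 1.15 in withdrawal mice, a change of -0.69 that did not pass the adjustment. Htr2a, the serotonin 2A receptor, differed by 0.01 in chronic mice and by 0.69 in withdrawal. Its 5 DBA/2J withdrawal mice (12.36 to 12.82) lay above the 6 C57BL/6J withdrawal mice (11.56 to 12.27), and the chronic groups overlapped (12.00 to 12.61 against 12.06 to 12.33). Nrn1, a neurite growth factor listed as a marker of cortical excitatory neurons, gave 0.05 and 1.57, and its call over both phases was lost in 11 of 22 fits with 1 mouse left out. Of the 11 tested markers of those neurons 1 was higher and 0 lower. Their mean level spanned 9.39 to 10.75 in DBA/2J and 9.94 to 10.70 in C57BL/6J. Their median strain difference was -0.24 in chronic mice, with 0 called, and 0.09 in withdrawal, with 3 higher and 0 lower. The change from chronic to withdrawal was above 0 for 11 of the 11 (median 0.46), the same way as for Htr2a, and its part in the Htr2a values was not tested.

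The saline mice show the strain difference in the absence of the drug. Among them 2912 genes were called (30.3%), 1134 higher in DBA/2J (11.8%) and 1778 lower (18.5%). With each array centred on its median these became 635 and 2600, and without the filter on low values 1654 and 1708. Of the 2496 genes called under nicotine 1640 were called the same way under saline (65.71% of the nicotine and 56.32% of the saline calls). Of the 455 genes without overlap under nicotine, 313 also had none under saline, where 447 genes in all had none (4.66%), 151 of them higher (1.57%) and 296 lower (3.08%) in DBA/2J. Across all genes the differences under nicotine and under saline correlated at r = 0.915. This is a description across genes, which are not independent replicates, and no mouse enters both.

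**Figure D2:**
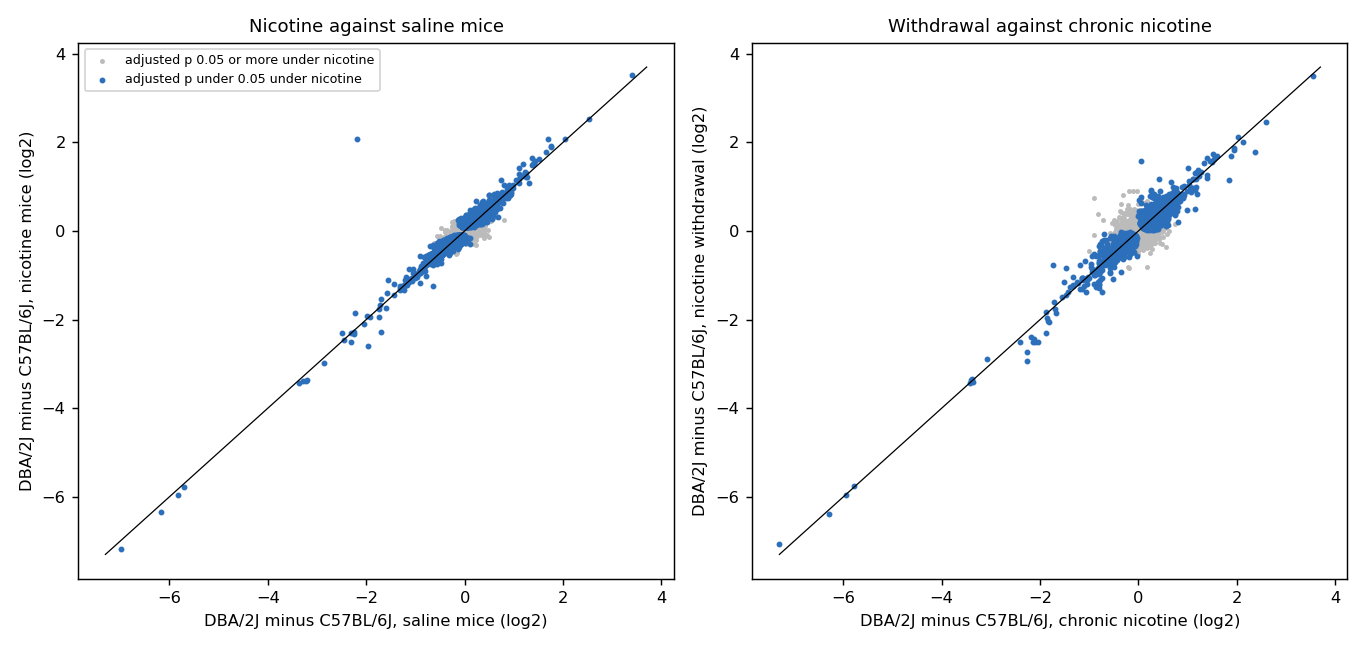
Strain difference of each tested gene (DBA/2J minus C57BL/6J, log2). The left panel sets nicotine mice (vertical) against saline mice (horizontal), and the right panel sets withdrawal against chronic nicotine mice; blue points passed the adjusted p of 0.05 under nicotine (2496 genes), and the line marks equal differences.

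In the plot of both comparisons the points follow the line of equal differences, and a single gene with a large difference, Gm11096, lies far off it. It is represented by 3 probes only. It and Alg10b were the 2 genes called in opposite directions (2.08 and -2.19 for Gm11096, 0.13 and -0.11 for Alg10b, the latter a glycosyltransferase of protein N-glycosylation). Both were picked out after their values were seen.

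The test of the difference itself, the strain difference under nicotine minus that under saline over all 46 mice, called 0 of 9596 genes (0%). There were 1182 genes at an unadjusted p under 0.05, 987 with the higher and 195 with the lower value, and the lowest adjusted p was 0.0692. With each array centred on its median the last 2 counts were 1942 and 67, and with quantile normalization 1078 and 138. The lean thus kept its direction, and its size depended on the scaling. For 96.23% of genes the 95% interval of this change lay within 0.5 either way on the log2 scale.

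The 3 genes with the smallest p are given as values. Qpctl, a glutaminyl cyclase of the Golgi, was higher in DBA/2J by 0.25 under nicotine and differed by -0.13 under saline, a change of 0.37 (adjusted p = 0.0692). Mis18a, a centromere protein, differed by -0.05 under nicotine and -0.36 under saline, a change of 0.31 (adjusted p = 0.0692). BC031181 changed by 0.36. When single mice were left out between 0 and 6 genes were called, with 6 in the absence of DBA/2J chronic saline mouse 1.

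The gene lists below are ordered by the roles of their members, and each count is to be read against the 15.3% of all tested genes that were higher and the 10.8% that were lower. Acetylcholine is made by choline acetyltransferase (Chat), packed into vesicles by the transporter VAChT (Slc18a3), and its choline is taken up again by CHT1 (Slc5a7). Slc18a3 lies within the Chat locus and is read in the same direction. The RefSeq starts of the 2 genes are 1059 bases apart on the minus strand of chromosome 14 (GRCm38.p6). The 250 bases before the start of Slc18a3 (chr14:32464851-32465100) are shown because both genes of this shared locus were higher in DBA/2J. Capitals mark the GC box GGGCGG, searched on both strands, which was found 2 times there and 0 times in the same window of Chat. It is held by 32.7% of the 32851 RefSeq promoter windows. The sequence is that of the reference strain, and the DBA/2J allele was not analysed here.
Slc18a3: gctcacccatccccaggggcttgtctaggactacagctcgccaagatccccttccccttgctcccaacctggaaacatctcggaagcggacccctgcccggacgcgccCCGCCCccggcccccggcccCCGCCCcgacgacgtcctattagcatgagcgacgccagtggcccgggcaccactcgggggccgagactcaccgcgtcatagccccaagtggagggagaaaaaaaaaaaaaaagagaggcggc

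All 3 genes of the acetylcholine cycle were higher in DBA/2J under nicotine. Chat ran from 7.42 to 7.85 (median 7.59) in chronic DBA/2J mice and from 7.01 to 7.27 (median 7.23) in chronic C57BL/6J mice, which did not overlap. In withdrawal the ranges were 7.22 to 7.85 and 6.75 to 7.35 and overlapped. The difference over both phases was 0.39 ± 0.077 (limma adjusted p = 4.75e-04). Slc5a7 differed by 0.50 ± 0.12 (8.89 to 9.99 against 8.21 to 9.09, adjusted p = 0.00251), and Slc18a3 by 0.35 ± 0.11 (6.07 to 7.29 against 6.06 to 6.62, adjusted p = 0.0188). The C57BL/6J values of Slc18a3 lay around the array medians of 6.30 to 6.44, so its difference was read near the filter on low values.

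These 3 were the only called members among the 7 tested cholinergic genes, and the list median was 0.35 against 0.02 over all genes. In the chronic groups 4 of the 7 were higher. In withdrawal 0 passed, with differences of 0.32, 0.44 and 0.17 for Chat, Slc5a7 and Slc18a3. The interaction of strain and phase did not pass for any of them (unadjusted limma p of 0.37, 0.631 and 0.103). Under saline Chat and Slc5a7 were higher in DBA/2J as well (0.30 and 0.36), and Slc18a3 gave 0.11 (adjusted p = 0.506). Of the 7 genes, 2 were higher and 1 lower there. The change with the drug did not pass for Slc18a3 (0.24, 95% interval -0.09 to 0.56). In tissue RNA, a larger number of cells of a type and more RNA per cell cannot be told apart, here and for every list below.

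Nicotinic receptors were little covered. Of the 16 listed subunits 10 had array values, and 1, Chrna7, passed the filter on low values. Chrna7 encodes the alpha7 subunit, which forms receptors by itself and is highly permeable to calcium. It ran from 9.83 (median 9.94) to 10.11 in DBA/2J and from 9.52 (median 9.70) to 9.83 in C57BL/6J, so that the ranges met only at their edges. The difference was 0.27 ± 0.043 (adjusted p = 3.59e-05) and was alike in chronic (0.27) and withdrawal mice (0.27). Under saline it was 0.14 (adjusted p = 0.0588), and the change with the drug, 0.13, had a 95% interval of -0.02 to 0.28. Of 8 tested genes for chaperones and modulators of these receptors, 1 was higher (Tmem35a, the chaperone NACHO, by 0.16) and 1 lower (Ly6g6e, by -0.18). Both calls were lost in single leave-one-out fits, 7 for Tmem35a and 9 for Ly6g6e of 22, with adjusted p up to 0.0691 and 0.0651.

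On the dopamine side every gene called over both phases was lower in DBA/2J, while 14 of 17 signalling and 4 of 7 turnover genes were not called. Drd2, the inhibitory receptor of the indirect pathway neurons, ran from 13.23 (median 13.64) to 13.93 in DBA/2J and from 13.88 (median 14.18) to 14.37 in C57BL/6J. The difference was -0.55 ± 0.087 (limma adjusted p = 3.45e-05), and it was -0.71 under saline. Gpr6, an orphan receptor of the same neurons, was lower by -0.38 ± 0.096. Pde10a was lower by -0.18 ± 0.064 (adjusted p = 0.0436), a call that was lost in 16 of 22 fits with 1 mouse left out. These 3 of 17 tested signalling genes were lower and 0 higher (list median -0.09). Drd1, the receptor of the direct pathway, differed by 0.07 (adjusted p = 0.544), and Ppp1r1b (DARPP-32) by 0.00.

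Th, tyrosine hydroxylase, the first enzyme of dopamine synthesis, ran from 8.04 (median 8.18) to 8.58 in DBA/2J and from 8.40 (median 8.59) to 8.79 in C57BL/6J. Only the highest DBA/2J mice reached into the C57BL/6J range. The difference was -0.37 ± 0.058 (adjusted p = 2.68e-05), at -0.38 in chronic and -0.37 in withdrawal mice. Th was also on the list of interneuron genes, and which cells its RNA came from was not tested. The degrading enzyme Maob was lower by -0.23 ± 0.084, and lost its call in 13 of 22 fits with 1 mouse left out (adjusted p up to 0.0927). Together 3 of 7 tested genes of dopamine turnover were lower and 0 higher, with a median of -0.07 and a range of -0.37 to 0.36. In withdrawal alone 1 was higher and 1 lower, and under saline 1 was higher and 4 lower.

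Among receptors for the main fast transmitters the shares higher, 12.5% of GABA and 13.33% of glutamate receptor genes, were near the 15.3% of all genes. Of 8 tested GABA receptor genes, Gabra5 (-0.47 ± 0.097) and Gabbr1 (-0.18 ± 0.038) were lower and Gabrb2 was higher (0.24 ± 0.051). Among 15 glutamate receptor genes, the kainate receptor genes Grik1 (0.44 ± 0.073) and Grik5 (0.21 ± 0.074) were higher and 0 were lower, and Grik5 lost its call in 7 of 22 fits with 1 mouse left out. Of 13 tested neuropeptide genes 1 was higher, Tac2, which encodes neurokinin B (0.60 ± 0.088), and 1 was lower. Of 7 tested interneuron genes 1 was higher, Pvalb, a marker of fast-spiking interneurons (0.49 ± 0.099). In the same list 3 were lower, among them Cox6a2 (-0.34) and Htr3a (-0.24). In the opioid list 0 of 3 tested genes were called by limma and 0 had an unadjusted p under 0.05, with Pomc, the precursor of beta-endorphin, at -0.09 and Oprm1, the mu receptor, at -0.06.

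Immediate early genes are transcribed within minutes of neuronal activity, and 7 of the 15 tested were lower in DBA/2J and 0 higher (median -0.25). Of all genes tested 10.8% were lower. Nr4a1, a nuclear receptor, gave the widest gap. The 250 bases before its single RefSeq start (GRCm38.p6, plus strand, chr15:101266596-101266845) are shown for it. Capitals mark the half-site TGACG of the cyclic AMP response element, and the EGR motif GCGGGGGCG, both searched on both strands and not overlapping. The half-site occurs 4 times and the EGR motif 1 time. Of all promoter windows 17.8% hold the half-site and 2.57% the EGR motif.
Nr4a1: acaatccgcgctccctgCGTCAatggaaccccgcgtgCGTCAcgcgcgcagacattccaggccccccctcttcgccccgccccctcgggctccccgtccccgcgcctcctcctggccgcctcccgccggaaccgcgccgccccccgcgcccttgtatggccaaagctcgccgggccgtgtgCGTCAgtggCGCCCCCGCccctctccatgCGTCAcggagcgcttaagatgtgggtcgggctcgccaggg

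Nr4a1 ran from 8.90 (median 10.85) to 11.40 in DBA/2J and from 10.31 (median 12.23) to 12.61 in C57BL/6J. The difference was -1.25 ± 0.29 (limma adjusted p = 0.00216). In the chronic groups the DBA/2J mice (8.90 to 11.40) lay below all C57BL/6J mice (11.50 to 12.59), and in withdrawal C57BL/6J mouse 1, at 10.31, fell below the 5 DBA/2J mice (10.73 to 11.38). Egr1, a zinc finger factor induced by synaptic activity, differed by -0.54 ± 0.14 (9.10 to 10.46 against 9.95 to 10.98). Homer1, a scaffold of the postsynaptic density, differed by -0.40 ± 0.085, and Junb, a partner in the AP-1 complex, by -0.20 ± 0.049. Arc, Egr2 and Dusp6 were lower too, by -0.72, -0.34 and -0.44. Fos and Npas4, by contrast, gave -0.29 and -0.25 without passing (adjusted p of 0.208 and 0.501).

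By phase, 5 of the 15 were lower in chronic mice and 0 in withdrawal. In saline mice 6 were lower and 0 higher, with a median of -0.23. Nr4a1 differed by -0.64 in the saline mice, which did not pass in limma (adjusted p = 0.131). Its change with the drug, -0.61, had a 95% interval of -1.52 to 0.29. The count depended on tissue makeup as a covariate: with the mean levels of cortical, myelin and ventral striatum markers in the fit, 1 of the 15 was lower and the median was -0.16. The part of those markers in the result was not tested further.

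**Figure D3:**
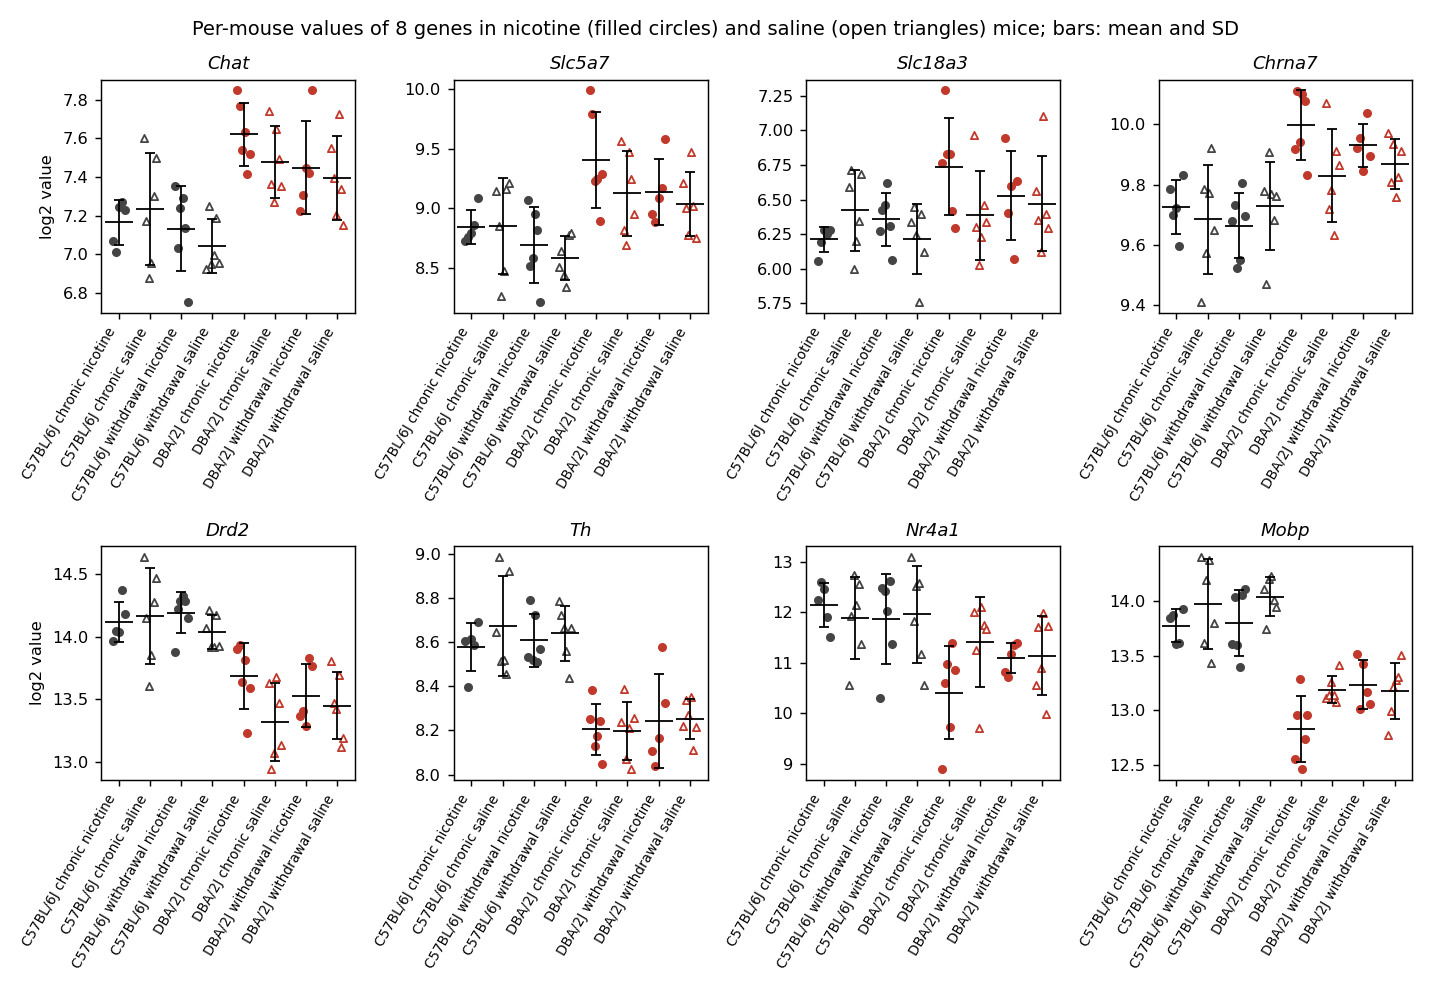
Log2 values of 8 genes in each mouse by strain, phase and drug, nicotine as filled circles and saline as open triangles, with the group mean and SD (bars). Chat, Slc5a7, Slc18a3 and Chrna7 are higher in DBA/2J (red) than in C57BL/6J (grey) nicotine mice, and Drd2, Th, Nr4a1 and Mobp lower; the saline groups lie beside the nicotine groups of the same strain.

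The plot of cholinergic, dopamine and other pathway genes shows that the groups of a strain overlap between the drugs for each of the 8 genes.

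Of 15 tested genes of myelin, the sheath that oligodendrocytes wrap around axons, 8 were lower in DBA/2J and 0 higher, with a median of -0.23. The other 7 did not pass, and 10.8% of all genes were lower. In chronic mice 5 were lower and 0 higher (median -0.32), and in withdrawal 2 were lower and 1 higher (median -0.11). Mobp, a structural protein of the compact sheath, ran from 12.46 (median 13.02) to 13.51 in DBA/2J and from 13.39 (median 13.84) to 14.11 in C57BL/6J. The difference was -0.76 ± 0.11 (adjusted p = 7.34e-06). Opalin, a membrane glycoprotein of the sheath, was lower by -0.46 ± 0.10, Cnp, an enzyme of the non-compact sheath, by -0.24 ± 0.062, and Cryab, a small heat shock protein, by -0.37 ± 0.092. Mog and Mbp, both sheath proteins, were lower by -0.31 and -0.27. Mag, an adhesion protein of the sheath, differed by 0.13 without passing (adjusted p = 0.330).

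The mean level of the 15 myelin genes spanned 10.90 to 11.54 in DBA/2J and 11.11 to 11.67 in C57BL/6J, so the groups overlapped. Under saline 7 were lower and 0 higher. Sox10, a transcription factor of the whole lineage, was lower by -0.40 ± 0.067 and was the 1 called of 8 tested precursor genes. Leaving out single mice gave 6 to 9 lower myelin genes. With tissue markers as covariates, which include this list itself, 1 was lower and 2 higher.

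Other glial lists split. Of 15 astrocyte genes 3 were higher and 2 lower. Gfap, the filament protein of reactive astrocytes, was higher by 0.59 ± 0.19, Gja1 by 0.16 and Mlc1 by 0.16. By phase, 0 were higher and 1 lower in chronic mice, and 2 were higher and 2 lower in withdrawal. The largest difference of the list was 0.26 in chronic mice and 0.91 in withdrawal, and the interaction of strain and phase called 0 of the 15. Ntsr2 and Aldoc were lower by -0.38 and -0.23. With the tissue markers as covariates Ntsr2, Aldoc and Mlc1 lost their calls in limma (adjusted p of 0.0878, 0.282 and 0.0507), and 2 of the 15 were higher and 0 lower. Of 10 microglial genes 2 were higher (Ly86 by 0.43 ± 0.067, Aif1 by 0.11) and 3 lower, among them Siglech by -0.28 ± 0.041 and Trem2 by -0.13. Trem2 lost its call in 12 of 22 fits with 1 mouse left out. The mean level of the microglial list was alike, 8.87 to 9.09 in DBA/2J and 8.84 to 9.05 in C57BL/6J.

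Of the 6 tested complement and acute phase genes 4 were higher and 0 lower. Beside Serpina3n these were C4b (0.31 ± 0.057), C4a (0.15 ± 0.038) and Cd14 (0.24 ± 0.086), the last a co-receptor for bacterial endotoxin. C4a and C4b are near-identical copies that an array may not separate. Under saline C4b differed by 0.11 and C4a by 0.08, without passing (limma adjusted p of 0.123 and 0.0893), and of the 6 genes 2 were higher and 1 lower there. The change with the drug passed for 0 of the 6. The call of Cd14 was lost in 13 of 22 fits with 1 mouse left out. With the tissue markers as covariates 2 of the 6 were higher and 0 lower, and C4a and Cd14 lost their calls (limma adjusted p of 0.0735 and 0.239).

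Of 12 tested genes of mitochondrial metabolism, 6 were higher and 0 lower, on a list that was made with earlier results known. Rfk, Mlycd and Ucp2 are described above, and Pdk2, Nnt and Acsf3 differed by 0.12 to 0.17. The latter 3 did not pass in saline mice (0.02, -0.01 and 0.04). The respiratory chain went both ways, with 8 of 50 genes higher (16%) and 4 lower (8%) and a median of 0.06, shares near those of all genes. Ndufc2, a subunit of complex I, was lower without overlap (10.08 to 10.46 against 10.60 to 10.98, difference -0.57 ± 0.051). Cox7a2l, a factor that joins respiratory complexes, was higher by 0.40 ± 0.060. Of 26 glutathione and antioxidant genes 6 were higher and 2 lower, the latter Txnrd1 (-0.24 ± 0.045) and Gsto1 (-0.21 ± 0.054).

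The clustered protocadherins, adhesion proteins that give neurons a surface identity, lie in a tandem array on chromosome 18. Of 21 tested, 13 were higher and 3 lower, with a median of 0.37. Pcdhb3 (8.86 to 9.49 against 7.78 to 8.16) and Pcdhb2 (7.55 to 8.17 against 5.81 to 6.44) led, with differences of 1.31 ± 0.061 and 1.62 ± 0.096. The C57BL/6J values of Pcdhb2 lay around or below the array medians of 6.30 to 6.44. Its DBA/2J values lay above them, so the filter on low values was met through DBA/2J. Pcdhb10 was higher by 0.70 ± 0.079, whereas Pcdhb5, between them in the array, was lower by -0.65 ± 0.072. Under saline 12 were higher and 3 lower. These genes resemble each other in sequence, and whether probes read more than 1 of them was not tested.

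The major histocompatibility complex carries different haplotypes in the strains. Of 15 tested genes of this list 2 were higher (H2-Ke6 by 0.35 ± 0.057, H2-DMa by 0.23 ± 0.062) and 2 lower (H2-T9 by -0.28 ± 0.043, H2-T10 by -0.23 ± 0.046). The classical class I genes H2-K1 and H2-D1 differed by 0.00 and -0.11, and the class II genes H2-Ab1 and Cd74 by 0.04 and -0.01, none past the threshold. A list of genes held to differ by variants between the strains was drawn up with earlier results of these data in view. Of its 17 tested members 9 were higher and 7 lower, which is a description and no support for the list.

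**Figure D4:**
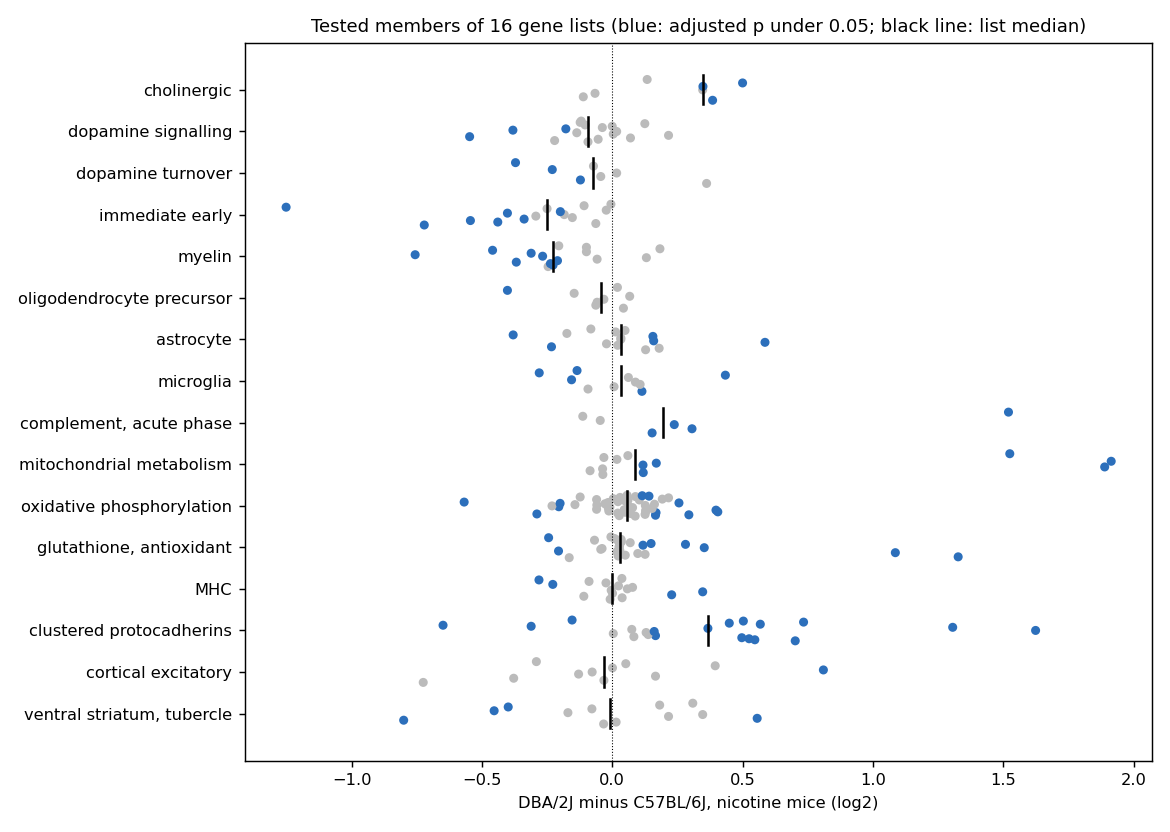
Strain difference (DBA/2J minus C57BL/6J, nicotine mice, log2) of each tested member of 16 gene lists. Blue points passed the adjusted p of 0.05, grey points did not, and the black line is the list median, which lies at -0.25 for immediate early and -0.23 for myelin genes and at 0.35 for cholinergic genes and 0.37 for clustered protocadherins.

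The plot of the lists shows these 4 medians apart from 0, while the lists of dopamine signalling, glia and the respiratory chain centre near 0 with single members far out. Probes that lie over sequence variants between the strains can lower the signal of the strain that differs from the array's design. Variants were not analysed here, and whether they contribute to the differences was not tested. The share called was 18.61% among genes with up to 30 probes and 27.97% among those with over 240. Genes at least 2-fold lower in DBA/2J had a median of 70 probes and those at least 2-fold higher 99.5, against 130 for genes not called.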

How the data were processed

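RNA of the nucleus accumbens was read on 1 array per mouse. The authors deposited log2 values, 1 per array and feature (48088 features, 6732 of them controls). How probes were summarised and arrays scaled is not given in the sources used here. A further file that the authors deposited holds S-scores (signed score values of each nicotine mouse against saline mice, per the file headers) for 26272 features and supplied gene names, coordinates and the number of probes (other values that the authors deposited). Its build is not stated in the files.

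Features with 1 symbol were kept, 1 per gene with the highest mean (16254 genes). A gene had to exceed the 50th percentile of non-control features of its array on at least 5 of 46 arrays, which left 9596 and removed 6658. Linear models with strain and phase were fitted over the 22 nicotine mice in limma 3.58.1 (R 4.3.3, moderated two-sided tests), and p-values were adjusted by Benjamini-Hochberg with a threshold of 0.05. Strain differences by phase, the strain by phase interaction, saline mice and the strain by drug interaction over 46 mice used limma too. In simulated data of the nicotine comparison over 9596 genes, 64.2% of 1.19-fold, 98.5% of 1.41-fold and 100% of 2-fold changes were recovered. There 67, 67 and 66 genes were changed, far fewer than the 2496 called in the data, and normal noise was drawn independently for each gene. The shares hold for that setting only. The figures and promoter windows were made with Python 3.11.15, matplotlib 3.10.9, numpy 2.4.6 and pandas 2.3.3.

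Named were the 15 genes with the largest difference in each direction among called genes without overlap, predicted genes only counted, and up to 4 called members with the smallest p of each of 37 lists (983 entries, 517 tested), or up to 2 as values where fewer than 2 were called. All tested genes of the lists of histocompatibility genes, known strain variants and nicotinic receptors could be named, as could the 3 genes with the smallest p of each interaction. Members of the lists beyond this rule (such as Gfap, Arc, Mog, Mbp, Mag, Fos, Npas4, Drd1, Ppp1r1b, Aif1, Acsf3 and Gsto1) and Btaf1, Gm10462, Gm11096 and Alg10b were chosen after their values were seen. The lists and the comparison were chosen with earlier results of these data known. Promoter sequences are RefSeq's (GRCm38.p6). Alternatives were other filters, scalings, fits, covariates, fits on S-scores, a block for mouse number, and fits that each omit 1 mouse. The labels assign no mouse to a litter, cage or date, so no batch could be tested. Some genes are not reported here.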

Additional observations from a re-analysis of the deposited data

Results flagged for a closer look

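In 48 genes and 4 nicotine groups, 192 sets of 5 or 6 mice were searched for a single mouse far from the others, and 8 were found, where chance alone gives about 1 in 20. In C57BL/6J withdrawal mouse 1, Mlycd read 7.10, below the next value of 7.40. In C57BL/6J chronic mouse 5, Ide read 11.75 (next 12.38) and Serpina3n 8.42 (next 8.26). In DBA/2J chronic mice, Zfp949 read 11.09 in mouse 1 (next 10.95), Ccl21a 6.73 in mouse 4 (next 7.32), and Abhd14a 6.48 in mouse 3 (next 6.65). In DBA/2J withdrawal mice, Pttg1 read 5.95 in mouse 1 (next 6.16), and Pde10a 14.86 in mouse 5 (next 14.56). Apart from Pde10a, these are genes whose strains did not overlap, and the single mice did not reach the other strain's range.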

How the results depend on the processing

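No named gene turned its direction where it was called. Of 131 named genes called under nicotine, 34 kept the call in every setting, 97 (these included) kept it in every setting apart from a test against a change of 0.5 (log2), and 14 lost it when some single mouse was left out. The number of genes called under nicotine was 155 (67 higher, 88 lower) in that test against 0.5, and 1614 with the filter set at the 75th percentile, where 5602 genes were tested; withdrawal then gave 933 and saline 1899. With tissue markers as covariates, saline gave 1424. The labels do not say whether equal mouse numbers pair mice. Same-numbered mice correlated at a median of 0.07 (over 0.1 in 11 of 31 pairs), and mice of different numbers at -0.02 (over 0.1 in 29 of 150 pairs). With mouse number as a replicate block the calls were 2557 under nicotine, 1685 in chronic, 1374 in withdrawal and 2816 in saline mice, with 0 for the phase interaction and 2 for the drug interaction. The drug interaction gave 1 gene with arrays centred on the median (Mis18a) and 2 with quantile normalization or the block (Qpctl and Mis18a). On the authors' S-scores it gave 1390 of 25802 genes when the saline reference was treated as free of error, and 0 (2550 at an unadjusted p under 0.05) when the spread of the saline mice was added, a fit chosen after seeing the data. Leaving out each mouse gave 2283 to 2529 genes under nicotine, 1244 to 1538 in chronic, 1058 to 1470 in withdrawal, 2677 to 3167 in saline mice, 0 for the phase interaction and 0 to 6 for the drug interaction, where 11 of 46 mice moved the count from 0. The number of arrays limits precision: 93.03% of 95% intervals under nicotine lay within 0.5 of 0.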

Other observations

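Features with no gene name also differed between the strains. Of 12664 that passed the same filter 2032 were called (16.05%), 858 higher and 1174 lower in DBA/2J, and 212 at least 2-fold apart (67 higher, 145 lower). Of the called features 1535 (75.54%) were called the same way in saline mice. Among 57 genes with several features 34 had a called one, and 0 had features called in both directions. Clic6, a chloride channel protein of the choroid plexus and ependyma, was higher in DBA/2J by 0.51 ± 0.11 (8.53 to 9.67 against 7.93 to 8.56), while it was the 1 called of 6 tested genes of those tissues. Of 11 circadian genes 2 were higher, Dbp by 0.35 ± 0.10 and Tef by 0.21 ± 0.057, and 0 lower, a share near the 15.3% of all genes that were higher. Of 26 proteasome genes 1 was higher and 3 lower, the latter near the 10.8% of all genes, with Psmb6, a catalytic subunit, lower without overlap (9.21 to 9.63 against 9.80 to 10.32). Crym, a thyroid hormone binding protein of the ventral striatum list, was lower by -0.80 ± 0.13, and Dlk1, of the same list, higher by 0.56 ± 0.14.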
